A study of Mus musculus with 2 samples.

Results

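Keratins are the intermediate filament proteins of epithelial cells, and their genes were examined here for nearby binding of the co-activator EP300, which acetylates histones and marks many enhancers. The genes were all GENCODE M21 protein-coding genes whose symbol is Krt followed by a digit, which leaves out the keratin-associated proteins (Krtap), Krtdap and Krtcap. The rule gave 53 keratin genes of 21938 protein-coding genes on named chromosomes, 27 on chromosome 11 and 26 on chromosome 15. The tissue was stomach taken at postnatal day 0 from mice of the strain B6NCrl, with no transgene, deletion or treatment named in the labels, and EP300-bound DNA was isolated by chromatin immunoprecipitation and sequenced. The series holds 2 libraries in 1 group, labelled as biological replicates 1 and 2. Their biosample and donor labels are identical, so differences between the libraries may be technical, and sex was not recorded. The deposited files are peak lists on the mouse build mm10 without read counts. Depth is therefore unknown, and with 1 group there is no comparison between conditions.

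A keratin filament is built from obligate pairs of a type I and a type II keratin, and in the mouse nearly all type I genes lie together on chromosome 11 and all type II genes, with the type I gene Krt18, on chromosome 15. Simple epithelia such as the glandular stomach use Krt8 with Krt18 and Krt19, stratified squamous epithelia use Krt5 with Krt14 in the basal layer and other pairs above it, and hair, nail and tongue papillae use hair keratins. The mouse stomach holds both kinds of lining, since its forestomach is a stratified squamous epithelium and its hind part is glandular. The keratins were therefore read in 5 classes, namely 5 simple, 3 basal, 14 suprabasal, 23 hair and 8 other keratins. The last class holds genes such as Krt17, Krt23, Krt42, Krt79 and Krt80 that were not put into the first 4.

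The peaks used were those of the optimal set, which the authors kept from the pooled reads by the irreproducible discovery rate (IDR), a measure of how well peak ranks repeat between replicates. It holds 7733 peaks on named chromosomes in 6079 regions, a region being a run of overlapping peaks, and each peak has a summit and a signal value in the units of the authors' peak caller. Each library also has its own list of 300000 peaks, ranked here by signal. The signal scale differs from list to list, so the values of replicate 1 and replicate 2 are given side by side with their ranks in the list. A peak of the optimal set need not rank high in each library. A conservative IDR set of 6974 peaks was used as a check. It is not a subset of the optimal set, and 4739 of the 7733 optimal peaks are in it.

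EP300 summits lay in the keratin clusters but not at the keratin gene starts. Within 1 kb of the gene start, 0 of 53 keratins had an optimal summit, whereas 10.1% of all protein-coding genes had one. Within 10 kb the keratins with a summit numbered 10 (18.9%, against 15.7% of all genes), and within 50 kb they numbered 39 (73.6%, against 34.9% of all genes). The median distance from a keratin start to the nearest summit was 32802 bp, against 100641 bp over all protein-coding genes. These 39 genes are not 39 separate observations, because the 126 pairs of a keratin and a summit within 50 kb came from 35 summits in 29 regions. A summit stood within 50 kb of a median of 3 and at most 7 keratins. When each summit was given only to the nearest protein-coding start, 14 of 53 keratins kept 1 within 50 kb, against 16.4% of all genes.

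The sequences around 7 intergenic or intronic summits beside keratins are shown, with the strongest of the 35 first. All 7 windows hold a motif match, so they do not stand for the motif shares over the keratin regions, given further on. At Krt19, Krt78 and Krt80 a stronger summit near the same gene is not printed. A further 2 coding-exon windows are shown because the epidermal pair Krt1 and Krt10 carried summits in their own coding exons. Each window runs 100 bp to either side of the summit on the plus strand of mm10 (GRCm38), 201 bases read 5′ to 3′ from the reference assembly, and capitals mark matches on either strand to the motifs given further on.
Krt42 upstream, chr11:100289127-100289327: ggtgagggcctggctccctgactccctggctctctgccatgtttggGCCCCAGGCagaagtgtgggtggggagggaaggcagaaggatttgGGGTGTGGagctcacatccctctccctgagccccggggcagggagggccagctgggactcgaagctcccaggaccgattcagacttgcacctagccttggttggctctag
Krt80 downstream, chr15:101331180-101331380: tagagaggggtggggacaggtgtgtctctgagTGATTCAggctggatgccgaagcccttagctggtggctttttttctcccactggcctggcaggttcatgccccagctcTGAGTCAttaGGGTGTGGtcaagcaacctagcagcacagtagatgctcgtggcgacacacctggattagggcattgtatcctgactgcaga
Krt39 intron, chr11:99514245-99514445: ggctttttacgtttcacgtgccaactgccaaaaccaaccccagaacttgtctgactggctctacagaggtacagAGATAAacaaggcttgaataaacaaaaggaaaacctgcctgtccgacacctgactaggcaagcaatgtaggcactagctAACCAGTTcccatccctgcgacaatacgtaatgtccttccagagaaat
Krt32 downstream, chr11:100073920-100074120: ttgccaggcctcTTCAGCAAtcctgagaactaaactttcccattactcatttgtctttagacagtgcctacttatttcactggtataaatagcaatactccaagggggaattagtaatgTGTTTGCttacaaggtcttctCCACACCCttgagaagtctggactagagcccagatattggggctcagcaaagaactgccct
Krt1 downstream, chr15:101835048-101835248: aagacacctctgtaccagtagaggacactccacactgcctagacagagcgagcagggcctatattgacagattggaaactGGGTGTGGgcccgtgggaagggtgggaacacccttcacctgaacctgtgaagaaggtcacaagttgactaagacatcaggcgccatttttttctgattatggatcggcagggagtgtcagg
Krt78 upstream, chr15:101977540-101977740: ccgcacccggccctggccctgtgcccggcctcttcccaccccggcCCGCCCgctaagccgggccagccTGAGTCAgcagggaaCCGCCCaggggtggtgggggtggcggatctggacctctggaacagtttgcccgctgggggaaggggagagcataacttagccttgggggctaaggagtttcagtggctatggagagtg
Krt19 upstream, chr11:100168099-100168299: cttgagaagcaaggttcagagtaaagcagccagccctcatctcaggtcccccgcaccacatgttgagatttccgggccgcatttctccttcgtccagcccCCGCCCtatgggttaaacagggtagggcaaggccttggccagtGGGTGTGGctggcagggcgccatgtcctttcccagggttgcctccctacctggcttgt
Krt10 coding exon, chr11:99385992-99386192: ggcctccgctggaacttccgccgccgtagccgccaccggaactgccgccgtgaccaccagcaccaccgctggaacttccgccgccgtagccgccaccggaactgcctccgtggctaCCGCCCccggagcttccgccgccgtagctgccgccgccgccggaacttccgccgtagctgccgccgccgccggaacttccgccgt
Krt1 coding exon, chr15:101846145-101846345: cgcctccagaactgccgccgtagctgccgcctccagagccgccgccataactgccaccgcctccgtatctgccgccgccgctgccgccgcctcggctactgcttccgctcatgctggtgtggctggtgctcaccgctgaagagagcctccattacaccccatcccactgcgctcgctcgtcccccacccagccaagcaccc

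The 35 summits within 50 kb of a keratin had a higher median signal than the optimal set, but those within 10 kb did not. Their median signal was 36.9 (quartiles 27.6 and 45.2), against 30.2 for all optimal summits and 29.3 for those over 1 kb from any protein-coding transcript start. Of the 35, 13 were below the median of all optimal summits. The 14 summits within 10 kb of a keratin start had a median of 29.0. In the conservative set were 26 of the 35 and 9 of the 14, against 4739 of all 7733. By protein-coding annotation 27 of the 35 were intergenic, 3 lay in introns, 2 in UTR exons and 3 in coding exons. Of the 35, 5 counted as promoter peaks, with a protein-coding transcript starting within 1 kb of the summit, against 2952 of all 7733 (38.2%). The 5 promoter peaks were at Smarce1 (2 overlapping peaks), Eif4b, Krtap3-3 and a further transcript start of Krt10. With promoter peaks set aside, 35 of 53 keratins still had a summit within 50 kb (17.5% of all genes) and 8 within 10 kb (4.30% of all genes). They fell to either side, 18 of the 35 summits upstream of the nearest keratin and 17 downstream of it.

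**Figure D1:**
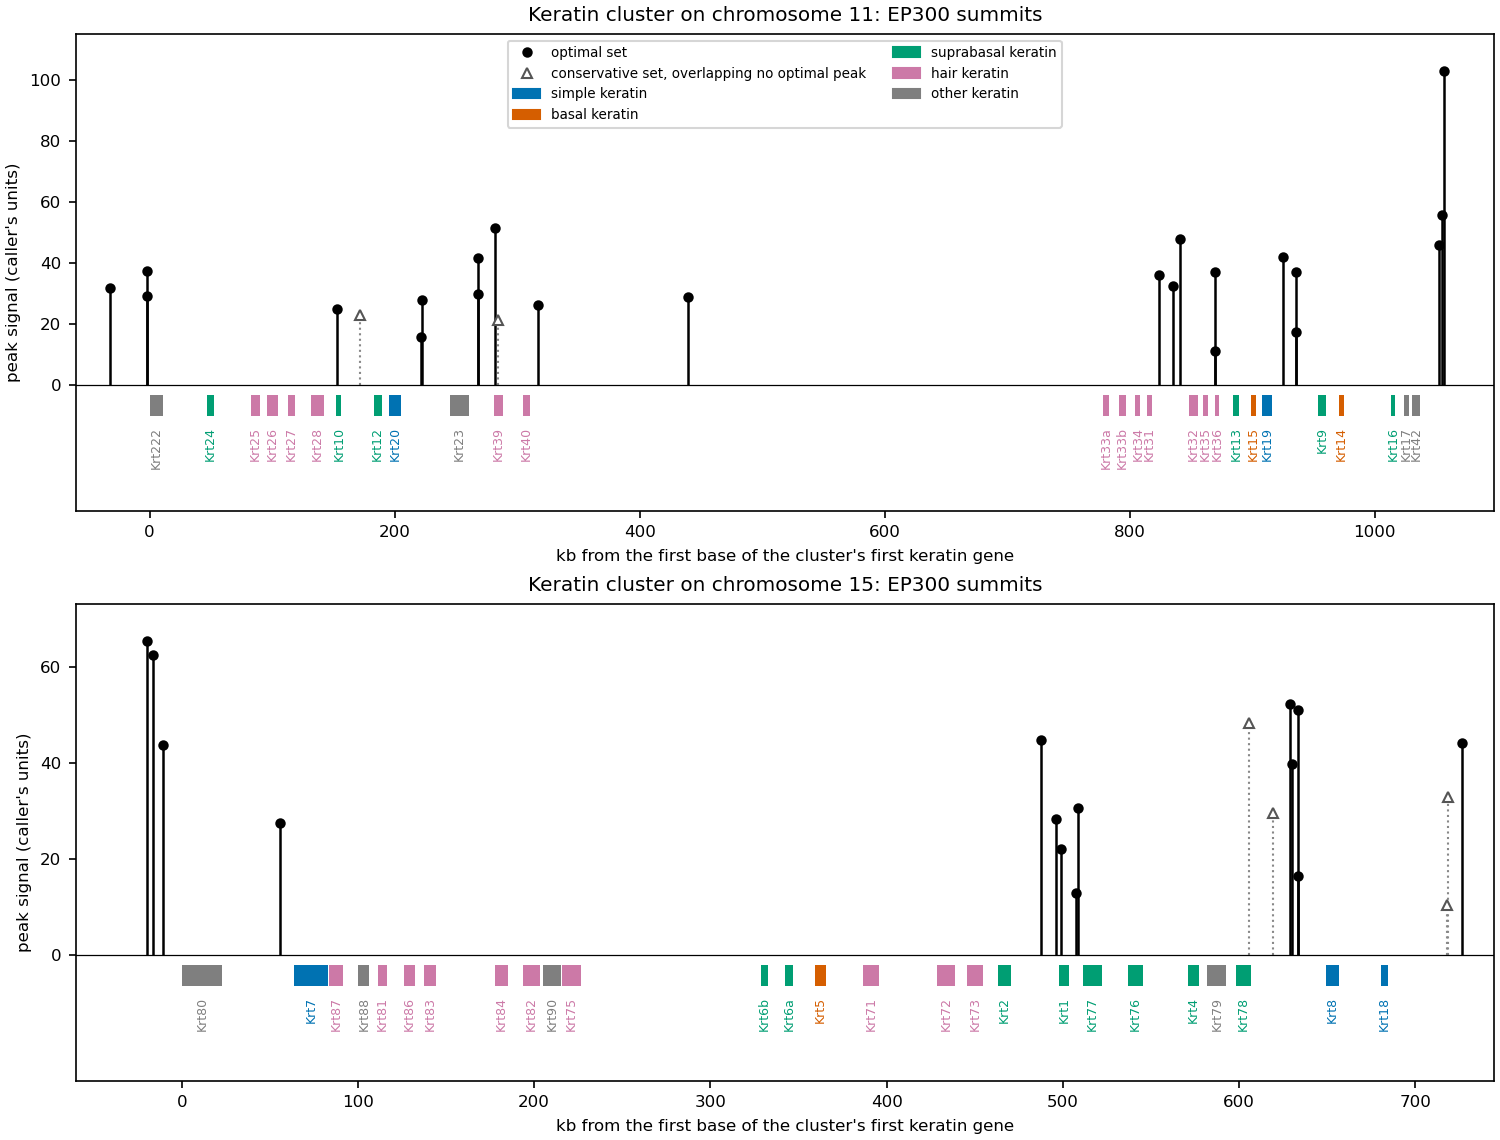
Optimal EP300 summits (filled circles, height is the signal in the caller's units) and conservative-set peaks that overlap no optimal peak (open triangles) along both keratin clusters, in kb from the first base of the first keratin gene, with keratin genes as bars coloured by class. The strongest summits stand at cluster edges, 102.8 upstream of Krt42 and 65.3 downstream of Krt80, and a stretch of 432 kb on chromosome 15 from Krt7 to Krt2 holds no optimal summit.

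Both clusters were denser in summits than the genome. The chromosome 11 cluster, from Krt222 to Krt42 (99232761 to 100269871, 1037 kb with 68 protein-coding genes), held 16 summits in 12 regions, or 15.4 per Mb. The chromosome 15 cluster, from Krt80 to Krt18 (101347444 to 102032027, 685 kb with 29 protein-coding genes), held 10 summits in 9 regions, or 14.6 per Mb. The whole genome held 2.84 per Mb, so the clusters stood 5.44-fold and 5.15-fold higher. Of stretches of equal length along the genome, 2.37% of 2618 tiles as long as the first cluster and 3.83% of 3970 tiles as long as the second held at least as many. Neither the genome value nor the tiles were matched for gene density. Genes lie close together in the clusters, with a median gap of 7712 bp between neighbours against 16885 bp in the genome. The part of gene density in the higher values was not tested. More keratins lay near a summit on chromosome 11, where 25 of 27 had 1 within 50 kb, than on chromosome 15, where 14 of 26 did.

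The share of gaps between neighbouring genes that held a summit was close to that of the genome, and larger among the longer gaps. Of the 95 gaps between neighbouring protein-coding genes of the clusters, 10 (10.5%) held a summit, and 11.6% of all 19057 such gaps of the genome did. Gaps in the clusters are short, with a median of 7712 bp against 16885 bp in the genome. Among gaps of at least 10 kb, 8 of 37 in the clusters (21.6%) held a summit, against 9.77% of 6835 genome gaps in the same range of lengths. The gap between Krt78 and Krt8 (42410 bp), at the border of a suprabasal and a simple keratin, held 4 summits. Those between Krt31 and Krt32 and between Krt19 and Krt9 held 3 each. The gaps from Krt20 to Krt23, Krt23 to Krt39, Krt2 to Krt1 and Krt1 to Krt77 held 2 each, and those from Krt80 to Krt7, Krt40 to Krtap3-3 and Krtap4-6 to Gm14190 held 1 each.

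Long stretches held no summit of the optimal set. Such stretches are not particular to the clusters, since genome tiles as long as the chromosome 15 cluster (685 kb) held a median of 0 summits. On chromosome 15, 432 kb separated the summit upstream of Krt7 from the next, downstream of Krt1, and this stretch holds the starts of 17 keratins, from Krt7 to Krt2, among them Krt5, Krt6a, Krt6b, Krt71 and Krt75. Its longest gap, between Krt75 and Gm5414, measures 50123 bp. On chromosome 11, 384 kb across the Krtap genes held 27 protein-coding starts, of which 4 were the hair keratins Krt33a, Krt33b, Krt34 and Krt31. The strongest pooled peaks did include 1 in this stretch, 2235 bp from the start of Krt33a, with a signal of 31.1. It had 27.9 in replicate 1 (rank 1018) but 8.25 in replicate 2 (rank 41700). A stretch of 155 kb held Krt222, Krt24 and the inner root sheath keratins Krt25, Krt26, Krt27 and Krt28, and 1 of 117 kb held Krt9, Krt14, Krt16, Krt17 and Krt42.

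**Figure D2:**
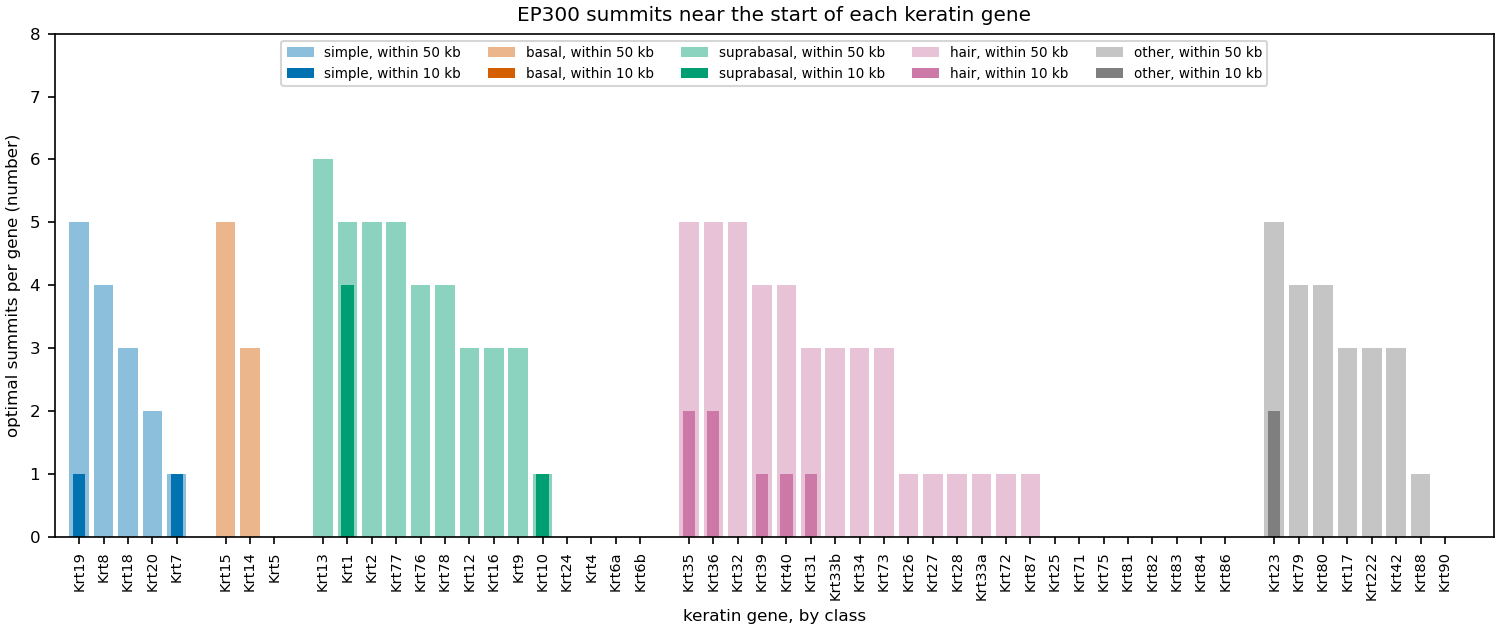
Number of optimal EP300 summits within 50 kb (wide pale bars) and within 10 kb (narrow dark bars) of the start of each keratin gene, grouped by class. Krt13 has the most within 50 kb (6) and Krt1 the most within 10 kb (4), and the 14 genes without a bar include Krt5, Krt4, Krt6a and Krt6b.

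The simple keratins, which fill the cells of glandular epithelium, all had a summit within 50 kb (5 of 5, against 34.9% of all genes). Within 10 kb 2 of 5 had 1 (against 15.7% of all genes). Krt19 had the most, 5 summits in 3 regions. The nearest, 9413 bp upstream (chromosome 11, 100157798 to 100158357, intergenic), had a signal of 41.9 in the optimal set, 22.2 in replicate 1 (rank 2088) and 17.9 in replicate 2 (rank 3385). A second region 19534 bp upstream, printed above, had 36.9, with 23.3 in replicate 1 (rank 1796) and 14.8 in replicate 2 (rank 5758). Both libraries thus placed the Krt19 peaks within their strongest 7737, which is as many as the optimal list holds. Krt7, the type II keratin of ducts and simple linings, had a single summit 7914 bp upstream (signal 27.4; 19.8 in replicate 1, rank 2931; 14.2 in replicate 2, rank 6549).

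The pair Krt8 and Krt18, the first keratins of simple epithelia, lie next to each other on chromosome 15 and had 4 and 3 summits within 50 kb. The summits nearest to Krt8 lay 23290 and 23492 bp downstream in the gap to Krt78 and overlapped. The stronger (101980710 to 101981269, intergenic) had a signal of 51.0, with 22.9 in replicate 1 (rank 1920) and 28.6 in replicate 2 (rank 830). No optimal summit lay closer to Krt8 or between Krt8 and Krt18, and the nearest to Krt18 was the promoter peak of Eif4b at 45933 bp. In replicate 2 a peak stood 2076 bp from the Krt8 start with a signal of 18.6 (rank 2989), and its counterpart in replicate 1 had 6.37 (rank 129261). The libraries therefore differed at that position, and it is in neither IDR set. Krt20, a keratin of the differentiated gastric and intestinal lining, had 2 overlapping summits 16528 and 16767 bp upstream with signals of 15.6 and 27.8. Neither was in the conservative set, and the library peak they share had 18.3 in replicate 1 (rank 3682) but 7.01 in replicate 2 (rank 77513).

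Of the basal keratins, which anchor the bottom layer of squamous epithelium, 2 of 3 had a summit within 50 kb (34.9% of all genes). Within 10 kb 0 of 3 had 1 (15.7% of all genes). Krt15 had 5 and Krt14 had 3, and every one of them lay nearer to Krt19 or to Krt36. Krt5, the partner of Krt14, had none, and its nearest summit was 122250 bp away. In the library lists Krt5 did have a peak 132 bp from its start in replicate 2, with a signal of 13.4 (rank 7673), just inside the strongest 7737 of that list. In replicate 1 the strongest peak within 1 kb of the start had 7.002 (rank 91989), so the Krt5 start was among the strongest 7737 of replicate 2 but not of replicate 1.

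The suprabasal keratins, of the differentiating layers of squamous epithelia, had a summit within 50 kb in 10 of 14 (71.4%, against 34.9% of all genes). Within 10 kb 2 of 14 had 1 (14.3%, against 15.7% of all genes), Krt1 and Krt10. Krt1, a type II keratin of cornifying cells, had 5 summits in 5 regions and was the nearest gene to all of them. The strongest lay 15646 bp downstream (101834868 to 101835427, intergenic) with a signal of 44.7, and 26.1 in replicate 1 (rank 1263) and 21.5 in replicate 2 (rank 1939). At 7429 bp downstream the signal was 28.3, with 14.5 in replicate 1 (rank 7371) and 16.3 in replicate 2 (rank 4350). These were the 2 Krt1 peaks within the strongest 7737 of both libraries.

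The 3 other Krt1 peaks were uneven between libraries. At 5169 bp upstream the signal was 30.6, with 11.6 in replicate 1 (rank 14351) and 19.3 in replicate 2 (rank 2691). At 4090 bp upstream it was 12.8, with 15.6 in replicate 2 (rank 4976) and no summit of replicate 1 inside the peak. The last lay on a coding exon of Krt1 itself, 4549 bp into the gene (101845965 to 101846524), with a signal of 21.9, and 12.3 in replicate 1 (rank 12110) and 8.45 in replicate 2 (rank 37422). Krt10, the type I partner of Krt1, likewise had its only summit on a coding exon of its own, 3272 bp from the start (chromosome 11, 99385812 to 99386371), with 24.8 in the optimal set, 10.1 in replicate 1 (rank 23407) and 10.7 in replicate 2 (rank 15415). Neither coding-exon peak was in the conservative set. Both windows, printed last above, are rich in G and C, 74.6% at Krt10 and 69.2% at Krt1, against a median of 50.7% over all optimal summits and 56.2% over the 35. Whether base composition or the repeated codons of these exons had a part in the signal was not tested.

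Krt13 and Krt4 form the pair of non-cornifying squamous epithelia such as forestomach and oesophagus. Krt13 had the most summits of any keratin, 6 within 50 kb in 4 regions, the nearest of them 19212 bp away at Krt36, and it was the nearest gene to none. Krt4 had 0 within 50 kb in the optimal set, with the nearest just outside the window at 51520 bp. This depended on the peak list, since the conservative set gave Krt4 2 summits and each single library gave it 3. Both summits of the conservative set, found in each library too, were peaks near Krt78, a type II keratin of the suprabasal class. The first (101952641 to 101953200, 1366 bp from the Krt78 start) had a signal of 48.2 in the conservative set, 24.9 in replicate 1 (rank 1472) and 14.1 in replicate 2 (rank 6570), and the second, 12668 bp upstream, had 29.5, with 17.0 in replicate 1 (rank 4640) and 16.6 in replicate 2 (rank 4166). Both ranked within the strongest 7737 of both libraries but overlapped no peak of the optimal list. The third summit differed between the libraries. In replicate 1 it lay 8404 bp from the start of Krt4 itself, with a signal of 16.5 (rank 5108) and 8.58 in replicate 2 (rank 35205). In replicate 2 it lay 1217 bp from the start of Krt79, with 13.9 (rank 6916) and no matched peak in replicate 1. In the optimal set Krt78 was nearest to 2 summits in the gap to Krt8, at 21968 bp (signal 52.2; 30.4 in replicate 1, rank 795; 32.5 in replicate 2, rank 577) and at 23353 bp (39.8; 18.3, rank 3681; 21.9, rank 1848).

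The wound-induced keratins did not share a pattern. Krt6a and Krt6b had 0 summits within 50 kb, and their nearest lay 140841 and 154861 bp away. Krt16, the type I partner of Krt6a, and Krt17 had 3 each, the same 3 as Krt42. These 3 peaks stand upstream of Krt42 just beyond the edge of the cluster, at 15343, 17365 and 19356 bp, all intergenic. The farthest (chromosome 11, 100288947 to 100289506) had the highest signal near any keratin, 102.8 in the optimal set (rank 196), with 40.2 in replicate 1 (rank 368) and 62.4 in replicate 2 (rank 143). The other 2 had signals of 45.7 (26.3 in replicate 1, 22.3 in replicate 2) and 55.6 (27.7 and 24.8). All 3 were in the conservative set and ranked 1747 or better in both libraries.

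Among the partner pairs, chosen after their values were seen, the counts of type II and type I members within 50 kb differed in each of the 7. They were 4 and 3 for Krt8 and Krt18, 1 and 5 for Krt7 and Krt19, 0 and 3 for Krt5 and Krt14, 5 and 1 for Krt1 and Krt10, 0 and 6 for Krt4 and Krt13, 0 and 3 for Krt6a and Krt16, and 4 and 1 for Krt76 and Krt10. The pairs other than Krt8 with Krt18 lie on different chromosomes and share no summit.

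The hair keratins, structural proteins of the hair shaft, nail and tongue papillae, had a summit within 50 kb in 15 of 23 (65.2%, against 34.9% of all genes). Within 10 kb 5 of 23 had 1 (21.7%, against 15.7% of all genes). The cortex, cuticle, nail and tongue keratins held all 5 of the latter (Krt31, Krt35, Krt36, Krt39 and Krt40), and 10 of these 15 genes had 1 within 50 kb. The 8 inner root sheath and companion layer keratins had none within 10 kb, and 5 of 8 had 1 within 50 kb. Krt39, a type I hair keratin, had a summit in its own intron 6993 bp from the start (chromosome 11, 99514065 to 99514624) with a signal of 51.5, the highest inside the chromosome 11 cluster. It had 18.2 in replicate 1 (rank 3763) and 25.5 in replicate 2 (rank 1171). A summit 14206 bp downstream of Krt32 (100073740 to 100074299) had 47.8, with 20.1 in replicate 1 (rank 2816) and 24.3 in replicate 2 (rank 1336).

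Upstream of Krt31 lay 2 summits, and only the nearer ranked within the strongest 7737 of both libraries. At 5710 bp the signal was 36.1, with 18.8 in replicate 1 (rank 3371) and 14.9 in replicate 2 (rank 5691). At 17335 bp it was 32.3, with 19.2 in replicate 2 (rank 2709) but 5.11 in replicate 1, near the end of that list (rank 252680). Krt36, a type I keratin of nail and tongue, had overlapping summits on its own UTR and coding exons. The first, 3503 bp from the start, had 37.1, with 19.7 in replicate 1 (rank 2990) and 17.5 in replicate 2 (rank 3569). The second, at 3272 bp, had 11.2 and shared the replicate 2 peak, but had 6.88 in replicate 1 (rank 97268). These also gave Krt35 its 2 summits within 10 kb. The summit within 10 kb of Krt40 was the promoter peak of Krtap3-3 (26.2), with 17.2 in replicate 1 (rank 4491) and 8.67 in replicate 2 (rank 34013). Of the hair keratins of chromosome 15, Krt71, Krt75, Krt81, Krt82, Krt83, Krt84 and Krt86 had 0 within 50 kb, Krt72 and Krt87 had 1 each, and Krt73 had 3, the nearest of them 32802 bp away on the side of Krt1.

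Of the 8 other keratins 7 had a summit within 50 kb (87.5%, against 34.9% of all genes) and 1 within 10 kb (12.5%, against 15.7%). Krt23, a type I keratin of several epithelia, had 5, of which 2 overlapping peaks lay 7336 and 7544 bp upstream with signals of 41.4 and 29.6. The library peak behind both had 24.6 in replicate 1 (rank 1523) and 18.1 in replicate 2 (rank 3242). Krt80, a type II keratin of many epithelia, had 4, and 3 of them lay 33575 to 42602 bp downstream, outside the cluster. The 2 farther peaks were the strongest near any type II keratin, with 65.3 (37.6 in replicate 1, rank 443; 32.4 in replicate 2, rank 580) and 62.5 (31.4, rank 713; 29.4, rank 753), and stood nearer to the start of 6030408B16Rik. The nearest of the 3 had 43.7 and was less even, with 32.5 in replicate 1 (rank 642) and 14.1 in replicate 2 (rank 6574).

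Values at the window borders were as follows. Just inside 50 kb were Krt72 (48688 bp) and Krt26 (48126 bp), and just outside were Krt4 (51520 bp) and Krt24 (54658 bp). Just inside 10 kb was Krt19 (9413 bp), and just outside was Krt28 (11189 bp). The share of keratins was below that of all genes at 5 kb, where 3 of 53 had a summit (13.0% of all genes), and above it at 25 kb, where 24 did (23.9%), and at 100 kb, where 46 did (49.1%). At least 4 summits within 50 kb were found at 17 keratins (32.1%, against 5.39% of all genes), but neighbours count the same summits.

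**Figure D3:**
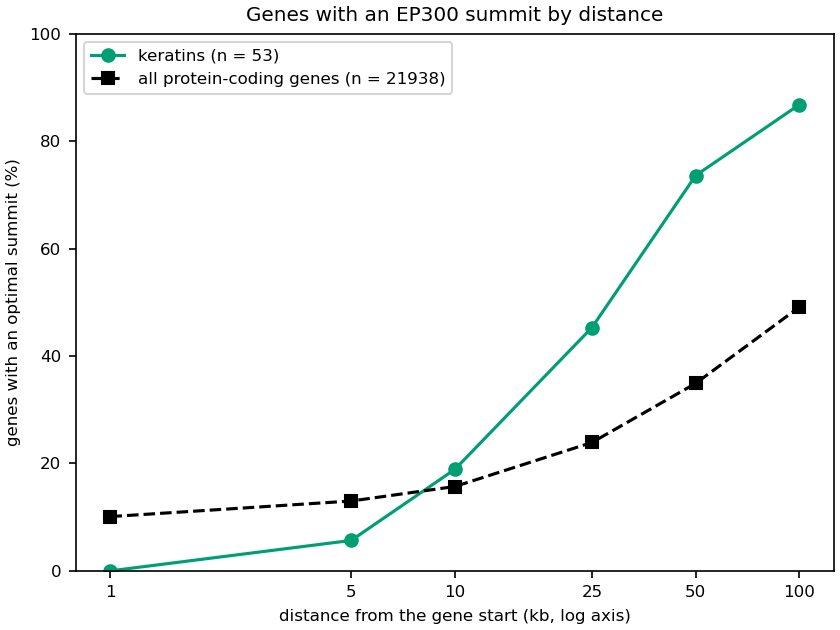
Share of genes with at least 1 optimal EP300 summit within 1, 5, 10, 25, 50 and 100 kb of the start (log axis), for 53 keratins and for all 21938 protein-coding genes. The keratins start at 0% against 10.1% at 1 kb, lie near all genes at 10 kb (18.9% against 15.7%) and reach 73.6% against 34.9% at 50 kb.

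The libraries were read at the keratin starts with their full lists, since the IDR sets hold far fewer peaks. Within 1 kb of the start, 11 of 53 keratins had a peak in replicate 1 (20.8%, against 44.6% of all genes) and 11 in replicate 2 (against 39.7%). Both lists had 1 at 7 keratins (13.2%, against 28.9% of all genes). Among the strongest 7737 of each list, the starts of Krt23 (14.5, rank 6114) and Krt5 were reached in replicate 2, and that of Krt80 (18.6, rank 3475) in replicate 1. None of these 3 starts was reached in both.

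Across the 35 summits neither library had the higher value throughout, but the lists have no common scale. The counts and medians that follow therefore do not say which library was stronger. A peak of replicate 2 was found at all 35 and a peak of replicate 1 at 34, and of those 34 the value was higher in replicate 1 at 18 and in replicate 2 at 16. The median was 19.96 in replicate 1 and 19.2 in replicate 2. Overlapping summits can share a library peak, so these are not 34 independent comparisons. Both libraries ranked 25 of the 35 within their strongest 7737. The same share over all optimal summits was not counted, so this does not show whether the libraries agreed better or worse at keratins. Relative to their size, the values lay farthest apart at the summit 17335 bp upstream of Krt31, at the shared peak of Krt20 and at the weaker summit of Krt36. The Krt36 difference follows from the matching of summits to peaks. The stronger Krt36 peak, which overlaps the weaker, had 19.7 in replicate 1 and 17.5 in replicate 2, and only the replicate 2 summit also lay inside the weaker.

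**Figure D4:**
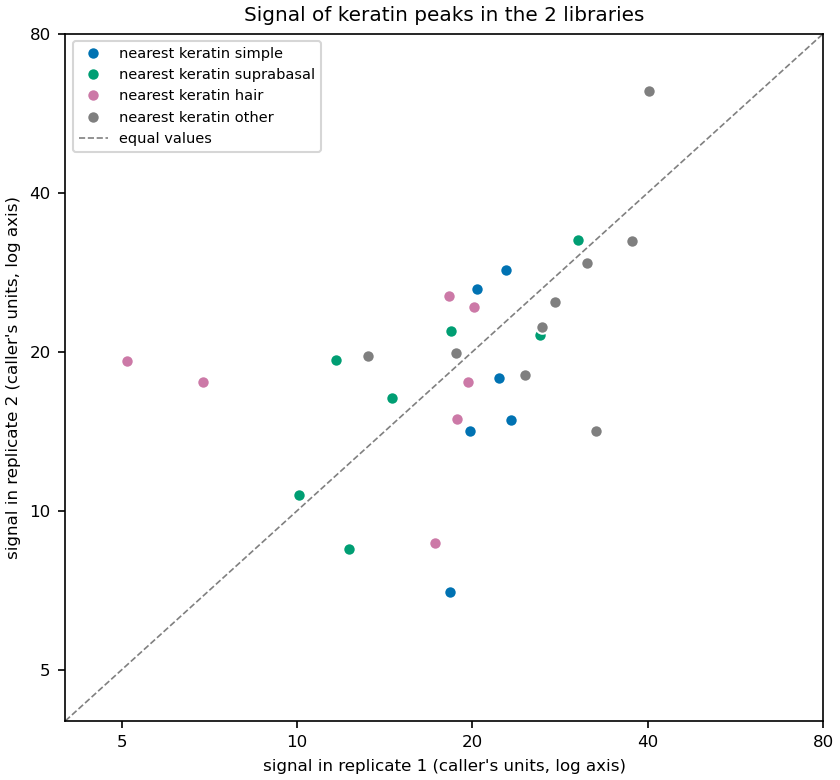
Signal of the 34 keratin summits matched in both libraries, replicate 1 against replicate 2 (caller's units, log axes, each list on its own scale), coloured by the class of the nearest keratin, with a dashed line at equal values. The Krt42 peak (40.2 and 62.4) stands at the top right, and the Krt31 peak at 5.11 and 19.2 lies farthest from the line.

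Motifs were searched on both strands in the 201-bp window of the strongest summit of each of the 29 regions, and the share over all 6079 optimal regions is given beside each. The KLF motif GGGTGTGG was in 6 of 29 (20.7%, against 3.72%, or 4.50% away from promoters), at Krt42, Krt32, Krt1, Krt19 and both of the strong Krt80 peaks. The AP-1 motif TGANTCA was also in 6 (20.7%, against 13.9%, or 19.3% away from promoters), at Krt42, Krt78, Krt31, Krt20, Krt80 and Smarce1. The SP motif GGGCGG was in 7 (24.1%, against 20.8%, or 9.57% away from promoters), and of these the windows at Smarce1 and Krt10 belong to promoter peaks. The TEAD motif GGAATG was in 4 (13.8%, against 14.6%, or 17.8% away from promoters), and so was the FOX motif TGTTTNC (against 19.7%, or 23.2%). The AP-2 motif GCCNNNGGC was in 2 (6.90%, against 10.9%, or 8.05% away from promoters), and so was the GATA motif AGATAA (against 8.37%, or 10.7%). GRHL (AACNNGTT) and CEBP (TTGCNNAA) motifs were in 1 each (3.45%, against 8.54% and 11.9%, or 11.1% and 14.8% away from promoters), at Krt39 and Krt32. ETS (CCGGAAGT), SOX (ACAAAGG) and p53 family motifs were in 0, against 2.58%, 5.25% and 1.96%, or 0.437%, 6.40% and 2.47% away from promoters. A match describes letters in the window and not a bound site, and 1 region of the 29 is worth 3.45 percentage points.

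The genes that work with keratins were counted in the same way. Of the desmosome and plakin genes, which tie filaments to cell junctions, 11 of 14 had a summit within 50 kb and 8 of 14 within 10 kb. Plec had 6, Pkp3 and Evpl 4 each, and Jup, which lies beyond the chromosome 11 cluster, 3. Of the hemidesmosome genes 3 of 4 had a summit within 50 kb and 1 of 4 within 10 kb (Cd151). Itgb4 and Col17a1 had 3 each within 50 kb, the nearest 46948 and 38080 bp away. The strongest of these stood nearest to the starts of H3f3b and Sfr1. Other intermediate filaments had a summit within 50 kb in 5 of 12 and within 10 kb in 1 of 12 (8.33%, against 15.7% of all genes). That 1 was Vim, the mesenchymal filament protein, with a promoter peak 295 bp from its start (29.1, with 14.5 in both libraries). Of the epithelial transcription factors 9 of 14 had a summit within 50 kb and 5 of 14 within 10 kb. Grhl2 had 5 within 50 kb and Klf5 and Ovol1 3 each, and Trp63 and Sox2 had none. Together 28 of 44 partner genes had a summit within 50 kb (63.6%, against 34.9% of all genes) and 15 within 10 kb (34.1%, against 15.7%).

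Whole stomach mixes many cell types, and fewer cells of a type cannot be told apart from less EP300 per cell. The tissue label was read against marker genes, whose summits are not expression levels. Of the mesenchyme markers 4 of 6 had a summit within 50 kb (34.9% of all genes) and the same 4 within 10 kb (15.7% of all genes), namely Acta2, Actg2, Myh11 and Barx1, and Nkx3-2 and Foxf1 had 0. Of the gastric epithelium markers 3 of 6 had 1 within 50 kb (Gkn1, Gkn2 and Tff2) and 0 of 6 within 10 kb. Gkn1 and Gkn2 shared their summit, which was nearest to Antxr1, and Tff1, Muc5ac and Cldn18 had 0. Of the squamous forestomach markers 4 of 6 had 1 within 50 kb (Krt13, Krt14, Krt15 and Sfn) and 1 of 6 within 10 kb (Sfn), and Krt5 and Trp63 had 0. Krt13, Krt14 and Krt15 are not separate observations. They shared the summits nearest to Krt19, and none of these genes was the nearest gene to a summit. Of the 5 skin appendage markers in the annotation 1 had a summit, Krt31, within both distances, and Krt71, Hoxc13, Tchh and Lef1 had 0. The part of any 1 cell type in the keratin summits was not tested.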

How the data were processed

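EP300 peaks of newborn mouse stomach were used as deposited, in narrowPeak layout on mm10. Peak strength is the authors' deposited signal, in the caller's units, with no common scale across lists. The deposited summit has a unit other than signal, the distance in bp from the first base of the peak, and was turned into a 1-based position. Peak caller and aligner were not given in the sources used here. Per the deposited descriptions, 1 file besides the alignment went into the list of replicate 1 and 2 went into that of replicate 2, and the IDR sets rest on the replicate and pooled lists. Possible controls are named per the labels, but not which list used which. The lists of each replicate and of the pooled reads end at 300000 peaks, so depth cannot be read from them and no interval is given. The 4 of 7737 optimal peaks outside the named chromosomes were dropped.

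A gene start is the annotated 5′ end of the gene in GENCODE M21 (21911 distinct symbols). The signal of a library is that of the strongest peak of its list with its summit inside the optimal peak. Clusters were compared with adjoining tiles of equal length, and gaps with all gaps between neighbouring protein-coding genes. The reference was checked against 37 RefSeq keratin promoters (GRCm38.p6), which matched. Counting was tested on simulated data. With 1 group and no counts, no test was run, and counts stand beside the share of all genes or regions. The members, classes, partner lists and 12 motifs were chosen with earlier results of these data known. Genes were named where a summit lay within 10 kb, where they led their class within 50 kb, where a summit was nearest to them, or as classical markers. Other keratins and pairs were named after their values were seen. Krt85 is not among the annotated protein-coding genes. Alternatives were other peak sets, each library alone, overlapping peaks counted once, other starts and windows, nearest start only and summits away from promoters. Python 3.11.15, numpy 2.4.6, pandas 2.3.3, pysam 0.24.0 and matplotlib 3.10.9 were used.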

Additional observations from a re-analysis of the deposited data

How the results depend on the processing

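The count of keratins with a summit within 50 kb was 38 in the conservative set (33.3% of all genes), 30 with peaks at or above the median signal (26.1%) and 40 with the strongest pooled peaks (38.1%). It fell to 14 when each summit was given to its nearest start (16.4% of all genes). With 1 library alone the count ranged from 36 without replicate 2 (38.9% of all genes) to 44 without replicate 1 (37.9%). Within 10 kb the range was 13 (18.7% of all genes, without replicate 2) to 14 (17.5%, without replicate 1). A 5 kb window left 3 (13.0% of all genes). Counted from any transcript start, 9 of 53 had a summit within 10 kb, against 17.1% of all genes. Gaps with a summit ranged from 10 (12.6% of all gaps) to 11 (12.9%) with 1 library, and peaks at or above the median signal left 6 (7.82%). The chromosome 11 cluster held 9.64 summits per Mb in the conservative set, 7.71 with peaks at or above the median and 11.6 to 12.5 with 1 library. The chromosome 15 cluster held 7.30 with peaks at or above the median and 16.1 to 23.4 with 1 library, the higher value without replicate 1. A set with fewer peaks also has a lower density over the genome, which is not given here for these sets. The cluster values therefore do not show a change in fold over the genome. Of the 39 keratins with a summit within 50 kb, 30 had 1 under all 6 other peak sets and 35 in both single libraries. Of the 14 without, 9 had none under any of them (Krt24, Krt25, Krt75, Krt81, Krt82, Krt83, Krt84, Krt86 and Krt90), and Krt4, Krt5, Krt6a, Krt6b and Krt71 gained 1 or more under some. Krt5, Krt6a, Krt6b and Krt71 gained theirs without replicate 1 alone, and it was the same peak for all of them. It lies 132 bp from the Krt5 start, with a signal of 13.4 in replicate 2 (rank 7673). The causes were not tested. No paired analysis was possible because the 2 libraries form 1 group.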
